A study of Mus musculus with 12 samples.

Results

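Dlk1 and 7 other imprinted growth genes, Igf2, Grb10, Cdkn1c, Plagl1, Peg3, Ndn and Mest, were followed across murine neuroblastoma tumors sampled with and without high intensity focused ultrasound (HIFU). They are 8 of the 19505 genes that the arrays name. The genes were taken by symbol, with the probe set of highest mean signal for each, and each of the 8 has 1 probe set. Dlk1 was chosen by its log2 signals, which are lower in the treated than in the untreated tumors of these same data, so its values are given as a description with no test. The question put to the other genes was whether they share the lower signal of Dlk1.

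The data are 12 expression arrays (Affymetrix Mouse Clariom S), 1 for each frozen tumor. Neuroblastoma, a tumor of the sympathetic nervous lineage, was grown from inoculated cells in mice of the inbred strain A/J, the host of every group. The control group holds 3 untreated tumors, and the HIFU groups hold 3 tumors each, labelled 24, 48 and 72 h. HIFU here is sound focused to break tissue apart mechanically. The times are read as hours after treatment, which the labels do not settle. The sources used here do not give the tumor cell line or the age and sex of the mice. Nor do they say if each tumor had a mouse of its own. Tumors that shared a mouse would not be independent, and the p-values may then be too small. Values are deposited log2 signals per probe set, with the base 2 read from their range, and the number of arrays limits the precision. Signals of different probe sets are not comparable as amounts of RNA, so levels are compared only within a gene.

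Genomic imprinting leaves a gene active on the copy from 1 parent and silent on the other. Many imprinted genes act on growth before birth. Genes active on the paternal copy, such as Dlk1, Igf2, Peg3, Mest and Plagl1, tend to favour growth, while maternally active genes such as Cdkn1c and Grb10 tend to limit it. Dlk1 encodes a transmembrane protein related to the Notch ligands that is also shed as preadipocyte factor 1. It is abundant in many fetal tissues, holds back adipocyte formation, and is made by chromaffin cells of the adrenal medulla and by neuroblastoma cells.

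The tissue label was checked against adrenergic neuroblastoma markers, of which 15 of 17 were measured. Th, the first enzyme of catecholamine synthesis, lay between 10.46 and 13.76 on the 12 arrays, Dbh, which makes noradrenaline, between 11.99 and 16.46, and Stmn2, a neuronal growth cone protein, between 12.62 and 17.34. Between 10 and 13 of the 15 lay above the array median on each array. Ddc, which makes dopamine (4.28 to 6.89), and Mycn, an oncogene amplified in many human neuroblastomas (4.46 to 7.28), lay around it. The log2 of the summed signal of 8 adrenal cortex markers was 6.16 to 6.81, and that of 5 Schwann cell markers 5.90 to 7.42, while that of 8 myeloid markers went from 11.64 to 13.13 in the controls to 15.60 to 19.18 at 72 h. The array medians lay between 5.43 and 5.68. An array that stood apart for the genes described here was control replicate 3. The median of 18 skeletal muscle markers, taken as the difference from the control mean, was -1.45 and -0.52 in control replicates 1 and 2 but 2.18 in control replicate 3, against 2.27 to 5.58 in the HIFU tumors. The median of 11 fibroblast markers was -0.46, -0.52 and 0.99 in the controls and 0.21 to 5.97 in the HIFU tumors. Without control replicate 3, the number of probe sets past an adjusted p of 0.05 (limma, Benjamini-Hochberg over 22206 probe sets) went from 12 to 253 at 24 h, from 1 to 312 at 48 h and from 2 to 194 at 72 h. Results for the 8 genes, and for some of the other genes named, are therefore given with and without it.

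Dlk1 was lower in every HIFU tumor than in every control. Its log2 signal was 16.45, 15.65 and 10.12 in the controls. It was 8.73, 8.56 and 7.47 at 24 h. It was 7.41, 6.87 and 8.22 at 48 h, and 9.82, 7.34 and 9.19 at 72 h. The groups did not overlap, but the controls themselves spanned most of the range. The control mean was 14.07 ± 3.45 (SD, n = 3), and the HIFU means were 8.25 ± 0.68, 7.50 ± 0.68 and 8.78 ± 1.29 (SD, n = 3 each).

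The mean of the HIFU groups was 5.89 ± 1.07 (SE) log2 units below control for Dlk1, a ratio of 59.5. The differences were -5.82 at 24 h, -6.57 at 48 h and -5.29 at 72 h (SE 1.31 each). Most of that distance lay between controls. Control replicates 1 and 2 averaged 16.05, which is 61.0-fold above control replicate 3, and control replicate 3 was 3.84-fold above the mean of the HIFU tumors. Without control replicate 3 the mean difference was -7.87 ± 0.59 (SE). The order of the group means ran from control through 72 h and 24 h to 48 h, and the HIFU groups overlapped one another. In tumor tissue, fewer cells that make Dlk1 and less Dlk1 RNA per cell cannot be told apart.

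**Figure D1:**
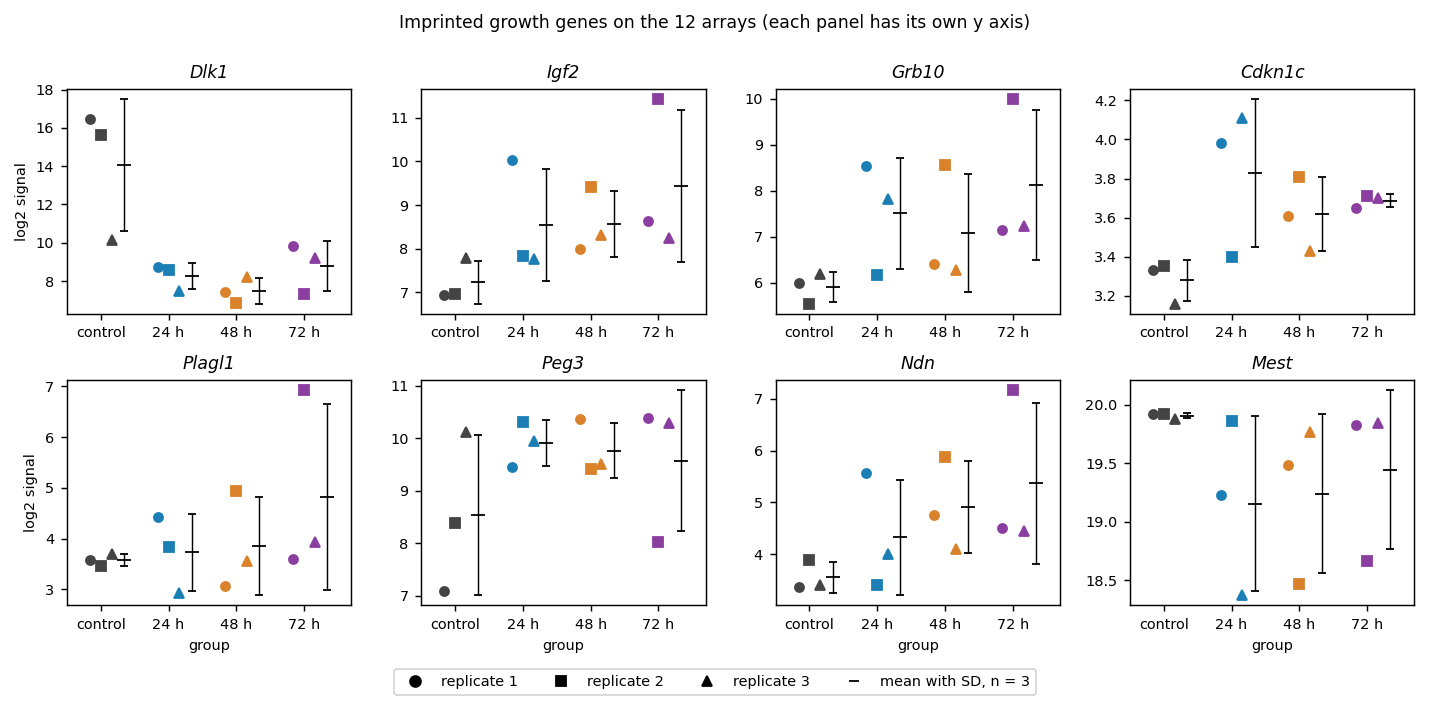
Log2 signal of the 8 genes (y axis, one scale per panel) in the 4 groups (x axis), with 1 symbol per array, circles, squares and triangles for replicates 1, 2 and 3, and the mean with SD (n = 3) at the right of each group. Dlk1 is high in control replicates 1 and 2 and 10.12 in control replicate 3, while Igf2, Grb10, Plagl1 and Ndn are highest in 72 h replicate 2.

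The lower signal of Dlk1 was not shared by 6 of the 7 other growth genes, whose mean differences from control were above 0 at all 3 times. Mest alone also had differences below 0, and the size of its difference is not known, since its controls lay at the top of the scale. None of the 7 passed the test in the unweighted fit at any time or for the mean of the HIFU groups. The share of all probe sets that passed was 0.054% at 24 h, 0.0045% at 48 h, 0.00901% at 72 h and 0.018% for the mean (limma). In a fit that gives variable arrays less weight, 3787 of the 22206 probe sets passed for the mean, and Igf2, Grb10 and Peg3 were among them as higher, with adjusted p-values of 0.0186, 0.0188 and 0.0202 (limma). With these weights 1846 of the 22206 probe sets passed at 72 h, and Peg3 was among them, with an adjusted p of 0.0329 (limma). At an unadjusted p under 0.05 in the unweighted fit, 1 of the 7 passed at 24 h, 0 at 48 h, 3 at 72 h and 3 for the mean, where 9.84%, 13.3%, 11.2% and 14.6% of all probe sets did. The median difference of the 7 genes was 0.77 at 24 h, 1.17 at 48 h and 1.24 at 72 h, and that of all probe sets was 0.00, 0.01 and -0.06.

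The arrays themselves can be compared without a model. All 3 HIFU tumors lay above all controls in 1 of the 7 genes at 24 h (6.84% of all probe sets), in 4 at 48 h (10.3%) and in 4 at 72 h (8.99%). They lay below all controls in 1 gene, Mest, at each time (7.68%, 11.7% and 10.1% of all probe sets). All 9 HIFU tumors lay above all controls for Cdkn1c (1.76% of all probe sets) and below them for Mest and Dlk1 (1.65%).

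**Figure D2:**
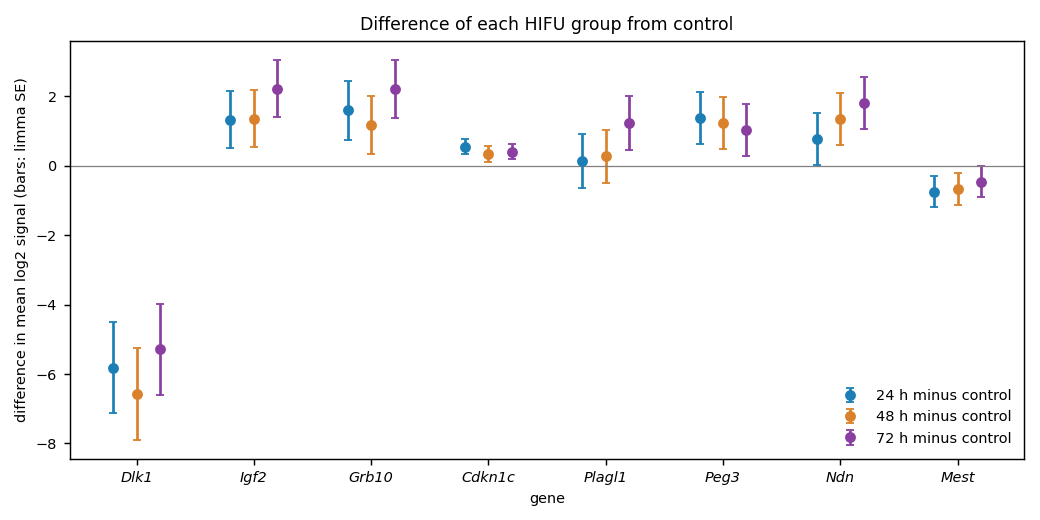
Difference in mean log2 signal between each HIFU group and control (y axis) for the 8 genes (x axis), with bars for the limma standard error. Dlk1 lies between -6.57 and -5.29, Mest between -0.75 and -0.46, and the other 6 genes lie above 0.

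Igf2 encodes insulin-like growth factor 2, a fetal growth ligand that signals through the type 1 IGF receptor. The controls had log2 signals of 6.93, 6.95 and 7.78. It was 10.03, 7.82 and 7.77 at 24 h, 7.98, 9.42 and 8.31 at 48 h, and 8.64, 11.44 and 8.24 at 72 h. Of the 9 HIFU tumors, 8 lay above all controls, and the exception at 24 h was 0.01 below control replicate 3. The difference at 72 h was 2.22 ± 0.82 (SE) with an adjusted p of 0.364 (limma), and it was 1.63 ± 0.67 (SE) for the mean of the HIFU groups, with an adjusted p of 0.298 (limma). Control replicates 1 and 2 were the lowest arrays for Igf2, 0.82 below the next, the opposite of their place for Dlk1. The mean difference was 1.91 ± 0.81 (SE) without control replicate 3. Single HIFU tumors carried much of the differences for Igf2, which went from 1.32 to 0.57 at 24 h without replicate 1 and from 2.22 to 1.22 at 72 h without replicate 2.

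Grb10, an adaptor protein that damps insulin and IGF receptor signalling, was highest in the same 3 tumors as Igf2. In the controls the log2 signal was 6.0, 5.55 and 6.19. It was 8.53, 6.18 and 7.82 at 24 h, 6.40, 8.57 and 6.29 at 48 h, and 7.14, 10.00 and 7.23 at 72 h. Again 8 of 9 HIFU tumors lay above all controls. The mean difference was 1.66 ± 0.69 (SE), with an adjusted p of 0.303 (limma). Without 48 h replicate 2 the 48 h difference of Grb10 went from 1.17 to 0.43, and without 72 h replicate 2 the 72 h difference went from 2.21 to 1.27. In the mouse Grb10 is active on the maternal copy in most tissues and on the paternal copy in neurons, and the array does not separate the copies.

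Plagl1, a zinc finger factor that restrains proliferation and regulates other imprinted genes, had a low signal except in a few HIFU tumors. It was 3.58, 3.46 and 3.70 in the controls. It was 4.43, 3.83 and 2.92 at 24 h, 3.07, 4.93 and 3.55 at 48 h, and 3.60, 6.92 and 3.94 at 72 h. The HIFU tumors lay on both sides of the controls. The 72 h difference, 1.24 ± 0.77 (SE), had an adjusted p of 0.585 (limma) and came largely from replicate 2. Leaving out 24 h replicate 1 turned the 24 h difference from 0.15 to -0.20, and leaving out 48 h replicate 2 turned the 48 h difference from 0.27 to -0.27.

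Ndn encodes necdin, a MAGE family protein of postmitotic neurons from the Prader-Willi region. Controls gave log2 signals of 3.37, 3.89 and 3.40. It was 5.56, 3.40 and 4.01 at 24 h, 4.76, 5.87 and 4.10 at 48 h, and 4.50, 7.16 and 4.44 at 72 h. The HIFU groups lay above the controls at 48 h and 72 h and overlapped them at 24 h. The differences were 0.77, 1.36 and 1.81 (SE 0.75 each), with adjusted p-values of 0.763, 0.453 and 0.398 (limma). Leaving out 24 h replicate 1, 48 h replicate 2 or 72 h replicate 2 took the difference at that time to 0.15, 0.88 or 0.92.

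Igf2, Grb10, Plagl1 and Ndn had their highest signals in the same 3 HIFU tumors, 24 h replicate 1, 48 h replicate 2 and 72 h replicate 2. Those were also the 3 HIFU tumors with the highest fibroblast marker medians (3.73, 5.32 and 5.97), the highest skeletal muscle medians (5.41, 4.52 and 5.58) and the highest endothelial medians (1.62, 1.62 and 1.91). Other lists matched only in part. In place of 24 h replicate 1, the 3 highest myeloid medians included 72 h replicate 3 (2.47). Those of preadipocyte and adipocyte markers (1.21) and of satellite cell and myoblast markers (0.56) included 24 h replicate 3. The log2 of the summed signal of the 11 fibroblast markers spanned 11.38 to 13.10 in the controls, 12.47 to 16.74 at 24 h, 13.87 to 18.08 at 48 h and 14.68 to 18.55 at 72 h. That of the 18 muscle markers spanned 16.97 to 20.62 in the controls and 20.64 to 22.36 in the HIFU tumors, and none of the 18 was below the array median on any array. The part of these cells in the signals of the 4 genes was not tested. In a fit with the skeletal muscle median as a covariate, the mean differences of Igf2, Grb10, Plagl1 and Ndn turned to -0.68, -0.55, -1.19 and -0.53, and that of Dlk1 went from -5.89 to -2.54 ± 1.14 (SE). The covariate and the treatment overlap, since the muscle median was above the controls in every HIFU tumor.

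**Figure D3:**
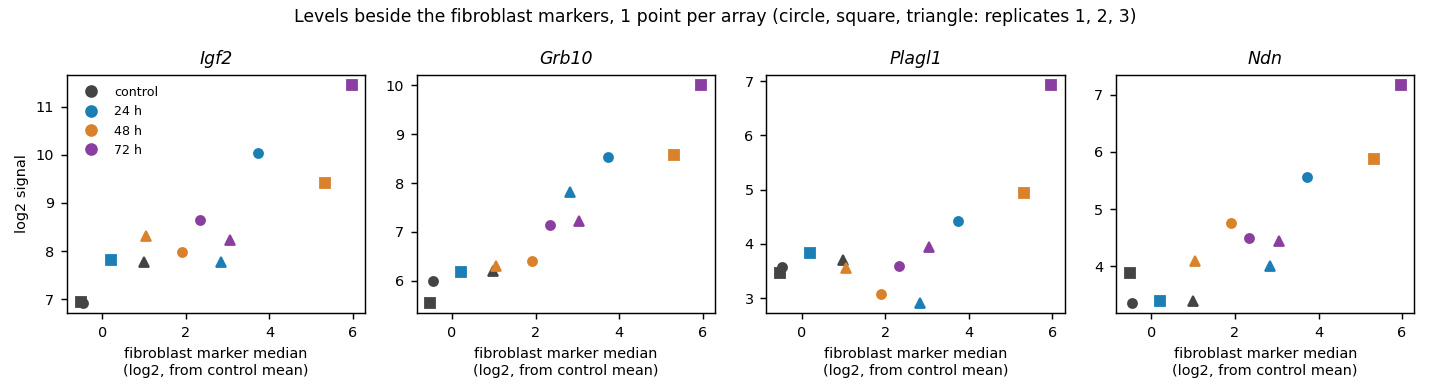
Log2 signal of Igf2, Grb10, Plagl1 and Ndn (y axes) against the median of 11 fibroblast markers as the difference from the control mean (x axis), with 1 point per array, coloured by group and shaped by replicate. The 3 arrays farthest right, at 3.73, 5.32 and 5.97, hold the 3 highest signals of each gene.

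The promoters of Plagl1 and Ndn, which have a single start each in the table used, are shown as the pair of these genes with an unambiguous window. Windows are RefSeq sequences of GRCm38.p6, from 250 bases before to 50 bases after the transcription start, 5′ to 3′ on the gene's strand. Capitals mark matches on either strand to TATAAA (the core of the TATA box), GGGCGG (the GC box bound by Sp factors), CACGTG (the E-box bound by MYC and MYCN dimers) and TGCCGC (the hexamer that ZFP57 binds at imprinting control regions). GGGCGG and TGCCGC can overlap on opposite strands. Of 32851 windows of this length, 13.6% held TATAAA, 35.7% GGGCGG, 7.15% CACGTG and 11.6% TGCCGC, and the median number of CpG dinucleotides was 7.
Plagl1: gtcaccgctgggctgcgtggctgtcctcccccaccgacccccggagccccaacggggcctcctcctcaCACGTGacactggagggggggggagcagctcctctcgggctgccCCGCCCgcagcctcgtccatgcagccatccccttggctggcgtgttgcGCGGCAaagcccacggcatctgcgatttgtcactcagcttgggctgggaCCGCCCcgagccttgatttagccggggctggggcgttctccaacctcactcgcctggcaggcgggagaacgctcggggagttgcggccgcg
Ndn: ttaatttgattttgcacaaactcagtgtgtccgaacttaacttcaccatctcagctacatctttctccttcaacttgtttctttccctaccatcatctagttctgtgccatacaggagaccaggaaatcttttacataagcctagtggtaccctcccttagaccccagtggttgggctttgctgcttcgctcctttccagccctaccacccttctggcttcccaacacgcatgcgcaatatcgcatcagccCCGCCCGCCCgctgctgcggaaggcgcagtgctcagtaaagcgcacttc
The Plagl1 window, at chr10:13090582-13090881 on the plus strand, held 26 CpG dinucleotides, 2 matches to GGGCGG, 1 to CACGTG and 1 to TGCCGC. The Ndn window, at chr7:62348027-62348326 on the plus strand, held 11 CpG dinucleotides and 2 matches to GGGCGG. The matches describe the letters and name no bound factor.

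Cdkn1c encodes p57, a cyclin-dependent kinase inhibitor, and stayed near the low end of the scale throughout. The log2 signals of the controls were 3.33, 3.35 and 3.16. It was 3.98, 3.40 and 4.11 at 24 h, 3.61, 3.81 and 3.43 at 48 h, and 3.65, 3.71 and 3.70 at 72 h. Every HIFU tumor lay above every control, by as little as 0.05. The mean difference was 0.43 ± 0.18 (SE), with an adjusted p of 0.311 (limma). Its mean lay at percentile 26.0 of all probe sets, where signal and background are hard to separate.

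Peg3, a zinc finger factor active on the paternal copy that acts in cell survival and maternal behaviour, was the member for which control replicate 3 lay farthest above the other controls. Its log2 signal was 7.09, 8.38 and 10.12 in the controls. It was 9.45, 10.31 and 9.95 at 24 h, 10.37, 9.41 and 9.51 at 48 h, and 10.39, 8.02 and 10.29 at 72 h. Control replicate 3 lay among the HIFU tumors, and 72 h replicate 2 lay among the controls. Over the 12 arrays the Pearson correlation of Peg3 was 0.792 with the median of the adrenergic neuroblastoma markers. It was 0.376 with the muscle median and 0.080 with the fibroblast median. The neuroblastoma median, as the difference from the control mean, was -0.82 in control replicate 1, 0.93 in control replicate 3 and -1.27 in 72 h replicate 2. The part of tumor cell content in the signal of Peg3 was not tested. The differences were 1.37, 1.23 and 1.04 (SE 0.75 each), with adjusted p-values of 0.586, 0.501 and 0.656 (limma). Leaving out control replicate 3 gave 2.17, 2.03 and 1.83 (SE 0.68 each), with adjusted p-values of 0.216, 0.196 and 0.275 (limma). Leaving out control replicate 1 instead gave 0.65, 0.51 and 0.32.

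Usp29, the paternally active neighbour that shares the Peg3 control region, was lowest on the same 2 arrays as Peg3. Its log2 signal was 5.17, 6.53 and 7.94 in the controls, 7.02, 8.61 and 7.26 at 24 h, 7.55, 6.27 and 7.35 at 48 h, and 8.24, 5.21 and 7.91 at 72 h. Both genes were lowest in control replicate 1. The next lowest array was 72 h replicate 2, and both were high in control replicate 3. The mean difference of Usp29 was 0.72 ± 0.69 (SE), with an adjusted p of 0.685 (limma), and it was 1.42 ± 0.74 (SE) without control replicate 3, with an adjusted p of 0.406 (limma).

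Mest, an enzyme of the alpha/beta hydrolase fold that is abundant in mesoderm before birth, was measured at the top of the scale. Its log2 signal was 19.92, 19.92 and 19.88 in the controls, where the highest signal of any probe set was 19.92, 19.92 and 19.93. It was 19.23, 19.86 and 18.37 at 24 h, 19.48, 18.47 and 19.77 at 48 h, and 19.83, 18.66 and 19.84 at 72 h. All 9 HIFU tumors lay below the controls, 4 of them by 0.11 or less from control replicate 3. The mean difference was -0.63 ± 0.37 (SE), with an adjusted p of 0.466 (limma). Without 72 h replicate 2 the 72 h difference went from -0.46 to -0.072. With the muscle covariate the mean difference was 0.15. A signal this close to the maximum cannot show how far the controls lay above the HIFU tumors. Copg2, the neighbour of Mest on the opposite strand, had a mean difference of -0.54 ± 0.29 (SE).

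None of the 7 genes passed the test between HIFU times, in comparisons where no probe set did. The largest differences in mean were 1.09 ± 0.77 (SE) for Plagl1 and 1.04 ± 0.75 (SE) for Ndn, both for 72 h against 24 h. The adjusted p-values for the 3 pairs of times ranged from 0.875 to 0.999 (limma), 0 of 22206 probe sets passed in any pair, and at an unadjusted p under 0.05, 0 of the 7 genes passed, where 3.89%, 6.26% and 5.57% of all probe sets did for 48 h against 24 h, 72 h against 48 h and 72 h against 24 h.

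The wider set of imprinted genes held 54 others, of which 43 were measured. H19, Meg3, Rian, Mirg and Rtl1, from the domains of Igf2 and Dlk1, were among the 11 not analysed here. None of the 43 passed at any time (limma). At an unadjusted p under 0.05, 7 passed at 24 h, 9 at 48 h and 9 at 72 h, where 9.84%, 13.3% and 11.2% of all probe sets did. Mean differences were above 0 for 24 and below 0 for 19 at 24 h, for 21 and 22 at 48 h, and for 20 and 23 at 72 h. Their median was 0.07, -0.02 and -0.03, close to that of all probe sets. The HIFU tumors lay below all controls for 10, 8 and 9 of the 43 at the 3 times, where 7.68%, 11.7% and 10.1% of all probe sets did. They lay above all controls for 4, 5 and 4 of the 43, where 6.84%, 10.3% and 8.99% of all probe sets did. Over the 3 times together, the HIFU tumors lay below all controls for 6 of the 43, where 1.65% of all probe sets did. These were Asb4, Phlda2, Blcap, Commd1, H13 and Ascl2, the last with its mean at percentile 0.7 of all probe sets. They lay above all controls for 0 of the 43, where 1.76% of all probe sets did.

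**Figure D4:**
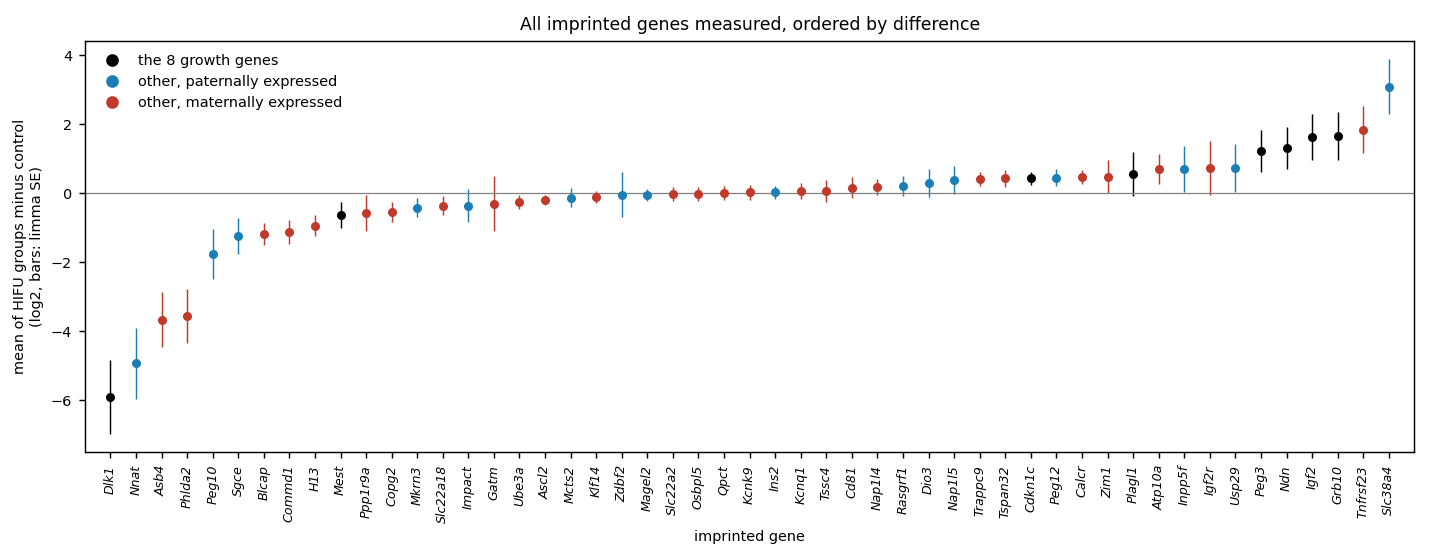
Mean of the HIFU groups minus control (y axis, log2, bars for the limma standard error) for the 51 imprinted genes measured, ordered from lowest to highest along the x axis and coloured by set and by active copy. Dlk1, at -5.89, is followed by Nnat, Asb4 and Phlda2, at -4.93, -3.66 and -3.56, and then by Peg10 at -1.75, while Slc38a4 is highest at 3.08.

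Within that set, 3 imprinted genes from other domains stood out beside Dlk1. Nnat, which encodes neuronatin, a small membrane proteolipid of developing brain, is active on the paternal copy. Phlda2, a pleckstrin homology protein that limits placental growth, and Asb4, a SOCS box protein, are active on the maternal copy. All 3 were high in control replicates 1 and 2 and low in control replicate 3 and in the HIFU tumors. The log2 signal of Nnat was 12.03, 11.30 and 5.71 in the controls, 4.27, 5.50 and 4.45 at 24 h, 4.56, 4.18 and 4.55 at 48 h, and 6.30, 4.54 and 4.39 at 72 h. That of Phlda2 was 8.90, 8.51 and 4.05 in the controls and between 3.15 and 4.01 in the 9 HIFU tumors. That of Asb4 was 11.63, 10.61 and 6.45 in the controls and between 5.34 and 6.35 in the HIFU tumors. All HIFU tumors lay below all controls for Phlda2 and Asb4, and 8 of 9 did for Nnat.

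With all controls, the mean differences of Nnat, Phlda2 and Asb4 were -4.93 ± 1.04, -3.56 ± 0.78 and -3.66 ± 0.79 (SE), each with an adjusted p of 0.125 (limma). Leaving out control replicate 3 made them -6.92 ± 0.48, -5.11 ± 0.24 and -5.22 ± 0.29 (SE), with adjusted p-values of 6.21e-05, 1.35e-05 and 2.34e-05 (limma). In that fit these 3 of the 43 other imprinted genes (6.98%) passed as lower at each time and for the mean, and 0 passed as higher. Of all probe sets, 0.905% passed as lower at 24 h, 1.17% at 48 h, 0.68% at 72 h and 1.37% for the mean, and 0.234%, 0.234%, 0.194% and 0.423% passed as higher. None of the 7 other growth genes passed in it. The mean difference of Peg3 went from 1.21 to 2.01, and the others were 1.80 for Grb10, 0.37 for Cdkn1c, 0.61 for Plagl1, 1.24 for Ndn and -0.64 for Mest, with Igf2 given above. The fit sets 9 HIFU tumors against 2 controls, and the array it leaves out was chosen after its values were seen.

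The gap between the lower of control replicates 1 and 2 and the highest of the other 10 arrays put a number on this pattern. Dlk1 and this measure were both chosen from these same values, so the ranks describe the pattern and do not test it. The gap was 5.53 log2 units for Dlk1, rank 1 of the 22206 probe sets. It was 5.0 for Nnat (rank 5), 4.46 for Phlda2 (rank 9) and 4.16 for Asb4 (rank 13). A gap over 4 was found for 15 probe sets (0.0675%), among them Dlk1 and these 3 of the 43 other imprinted genes. For 6 of the other growth genes there was none, and for Mest, with controls at the top of the scale, the gap cannot be read. The pattern divides the controls as much as it divides treated from untreated tumors. The muscle and fibroblast marker medians given above divide the controls in the same way, with the opposite sign. The adrenergic neuroblastoma markers also differed between controls, and among the controls were lowest where Dlk1 was highest. Their median difference from the control mean was -0.82, 0.03 and 0.93 in the controls and between -1.27 and 0.56 in the HIFU tumors. The log2 of their summed signal was 15.34, 16.85 and 18.66 in the controls and between 15.74 and 18.76 in the HIFU tumors. Over the 12 arrays the Pearson correlation of Dlk1 was -0.117 with the neuroblastoma marker median. It was -0.899 with the muscle median and -0.698 with the fibroblast median. The part of these cells in the pattern was not tested.

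**Figure D5:**
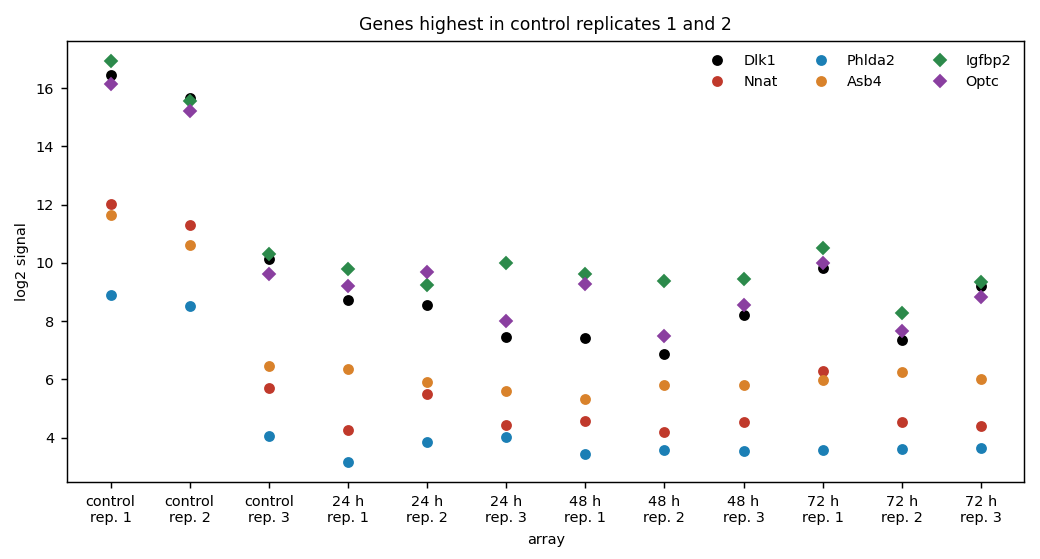
Log2 signal (y axis) of Dlk1, Nnat, Phlda2 and Asb4 (imprinted, circles) and of Igfbp2 and Optc (not imprinted, diamonds) on the 12 arrays (x axis). For each gene the mean of control replicates 1 and 2 lies 4.66 to 6.08 log2 units above control replicate 3, which itself lies at most 1.94 above the HIFU mean.

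The promoters of these 4 imprinted genes are shown because the genes share an array pattern while lying on 4 chromosomes. Capitals mark the motifs spelled out above, and the Asb4 window is the first of 2 starts in the table.
Dlk1: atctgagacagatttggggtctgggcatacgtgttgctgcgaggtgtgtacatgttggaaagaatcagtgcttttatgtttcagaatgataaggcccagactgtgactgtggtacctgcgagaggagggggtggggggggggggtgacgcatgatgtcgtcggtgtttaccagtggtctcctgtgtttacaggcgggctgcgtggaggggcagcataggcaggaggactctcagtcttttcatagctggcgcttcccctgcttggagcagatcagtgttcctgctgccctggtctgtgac
Nnat: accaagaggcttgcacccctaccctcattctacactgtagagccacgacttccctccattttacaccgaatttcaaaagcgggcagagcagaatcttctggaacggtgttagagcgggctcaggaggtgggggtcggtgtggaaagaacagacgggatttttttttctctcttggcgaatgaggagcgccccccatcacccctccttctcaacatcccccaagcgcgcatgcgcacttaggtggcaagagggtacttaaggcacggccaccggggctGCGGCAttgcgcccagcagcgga
Phlda2: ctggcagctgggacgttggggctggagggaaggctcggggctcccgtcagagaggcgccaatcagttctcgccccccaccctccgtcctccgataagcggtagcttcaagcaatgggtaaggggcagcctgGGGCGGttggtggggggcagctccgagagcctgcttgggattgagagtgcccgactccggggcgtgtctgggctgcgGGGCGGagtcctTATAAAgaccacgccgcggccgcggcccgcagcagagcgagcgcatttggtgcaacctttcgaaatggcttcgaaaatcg
Asb4: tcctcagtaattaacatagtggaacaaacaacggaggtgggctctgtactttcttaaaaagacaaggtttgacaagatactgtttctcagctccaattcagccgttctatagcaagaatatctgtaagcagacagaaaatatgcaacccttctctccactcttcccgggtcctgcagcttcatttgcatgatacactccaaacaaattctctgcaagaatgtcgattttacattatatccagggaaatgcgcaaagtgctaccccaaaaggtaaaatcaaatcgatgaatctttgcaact
The Dlk1 window, at chr12:109452573-109452872 on the plus strand, held 9 CpG dinucleotides and none of the 4 motifs. The Nnat window, at chr2:157559828-157560127 on the plus strand, held 17 CpG dinucleotides and 1 match to TGCCGC. The Phlda2 window, at chr7:143502475-143502774 on the minus strand, held 26 CpG dinucleotides, 1 match to TATAAA and 2 to GGGCGG. The Asb4 window, at chr6:5383136-5383435 on the plus strand, held 6 CpG dinucleotides and no motif. None of the 4 motifs was present in all of these windows, which says only that those letters are not in them.

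The imprinted neighbours of these genes were read for the same pattern, which a probe set near background cannot show. Dio3, at the far end of the Dlk1 domain, had a log2 signal between 2.84 and 5.38 on all arrays, with its mean at percentile 28.2 of all probe sets, and a mean difference of 0.31 ± 0.41 (SE). Blcap, which hosts Nnat in an intron, was 8.80, 8.79 and 8.93 in the controls, without a drop in control replicate 3, and had a mean difference of -1.18 ± 0.31 (SE; adjusted p = 0.15, limma). Cdkn1c, whose signal was also near background, lies in the same chromosome 7 domain as Phlda2, and its HIFU tumors were above the controls. In the Peg10 domain of chromosome 6, which holds Asb4, Peg10, a retrotransposon-derived placental gene, had a mean difference of -1.75 ± 0.73 (SE; adjusted p = 0.302, limma). Its gap was 0.56, and Sgce, a sarcoglycan, had no gap and a mean difference of -1.24 ± 0.53 (SE).

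The genes most like Dlk1 over the 12 arrays were not imprinted. Among 9787 named probe sets above the median mean signal, the highest Pearson correlations were with Tmem54 (0.985), St6galnac5 (0.985), Htr3a (0.984), Optc (0.980), Sertad4 (0.980) and Prdm8 (0.978). All points share the same 12 arrays, and control replicates 1 and 2 carry most of the value. Over the 9 HIFU arrays alone the correlations were 0.850, 0.828, 0.950, 0.779, 0.832 and 0.780. For Htr3a, the serotonin receptor channel subunit, the log2 signal was 18.83, 17.92 and 14.06 in the controls and between 10.90 and 14.41 in the HIFU tumors. For the imprinted genes the 12-array value was 0.975 with Nnat, 0.963 with Asb4 and 0.948 with Phlda2, and the HIFU-array value was 0.638 with Nnat and 0.385 with Asb4. It was -0.181 with Phlda2, whose signals in the HIFU tumors, 3.15 to 4.01, lie where signal and background are hard to separate. Those of Nnat in the HIFU tumors, 4.18 to 6.30, also lay mostly below the array median. Among the growth genes the 12-array value was 0.585 with Mest, whose controls are at the top of the scale, and between -0.622 and -0.289 with the other 6. The HIFU-array value was 0.769 with Mest and between -0.421 and -0.229 with the others except Peg3. For Peg3 the sign turned, from -0.622 on the 12 arrays to 0.485 on the HIFU arrays. Over all imprinted genes measured, the HIFU-array value lay between -0.763 (Tnfrsf23) and 0.769 (Mest).

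Genes of the pathways in which the members act were read from the same fit, and counts at an unadjusted p under 0.05 at 24, 48 and 72 h stand beside 9.84%, 13.3% and 11.2% of all probe sets. Without control replicate 3, 0.905%, 1.17% and 0.68% of all probe sets passed as lower at these times, and 0.234%, 0.234% and 0.194% as higher. That array was left out after its values were seen, so calls in that fit are no independent support. In the IGF axis, 20 of 22 genes were measured and none passed with all controls (limma), with 5, 6 and 5 at an unadjusted p under 0.05 at 24, 48 and 72 h. Igfbp2, an IGF-binding protein, had the array pattern of Dlk1, with 16.94, 15.56 and 10.30 in the controls and between 8.29 and 10.51 in the HIFU tumors. Its gap was 5.05, rank 4. Stc2, a stanniocalcin that inhibits the protease freeing IGF from its binding proteins, had a mean difference of -2.56 ± 0.46 (SE; adjusted p = 0.11, limma). Without control replicate 3, Igfbp2, Igf2bp3 and Stc2 passed as lower at each time, Igfbp5 at 24 h and 48 h, and no gene of the list passed as higher. Igf2r, the maternally active receptor that clears IGF2, had a mean difference of 0.72 ± 0.78 (SE).

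In the Notch pathway, which Dlk1 has been reported to modulate, none of 11 receptors and ligands and none of 16 targets and modifiers passed with all controls or without control replicate 3 (limma). The median difference of the receptors and ligands was 0.17, 0.04 and 0.17 at 24, 48 and 72 h. At an unadjusted p under 0.05, 0, 1 and 0 of them passed, and 2, 2 and 2 of the targets and modifiers. The means of Notch1, Notch3, Notch4 and the ligand Dner lay at percentiles 29.1, 42.0, 34.8 and 2.0 of all probe sets. Such low signals limit what their differences can show. Hey2, a transcriptional repressor induced by Notch, was 7.35, 7.40 and 7.61 in the controls and between 5.11 and 6.80 in the HIFU tumors, which do not overlap. All HIFU tumors lay below all controls for 2 of the 16 targets and modifiers, where 1.65% of all probe sets did. The mean difference of Hey2 was -1.24 ± 0.26 (SE; adjusted p = 0.125, limma). Hey2 did not separate the controls as Dlk1 did.

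The other CDK inhibitors lay on both sides of 0. Cdkn1a had a mean difference above 0 at each time, as Cdkn1c did, and for the mean of the HIFU groups the other 5 lay below 0. None of the 6 passed with all controls (limma), with 3, 2 and 2 at an unadjusted p under 0.05. Cdkn1a, the p53 target p21, was 9.71, 9.67 and 11.44 in the controls and 13.98, 12.18 and 12.75 at 24 h, a difference of 2.70 ± 0.61 (SE; adjusted p = 0.213, limma). Cdkn1b, which encodes p27, had a mean difference of -1.58 ± 0.43 (SE; adjusted p = 0.154, limma). Of the 8 PLAG and MAGE relatives of Plagl1 and Ndn, 7 had a difference below 0 at 48 h and 72 h and 6 at 24 h, opposite in sign to both members, and none passed, with 4, 2 and 1 at an unadjusted p under 0.05. Plag1, an activator of Igf2, was 8.25, 7.77 and 5.16 in the controls and between 3.44 and 5.69 in the HIFU tumors. In the fit without control replicate 3, Plag1 passed as lower at each time, Cdkn2c passed as lower at 24 h and 48 h, and Cdkn1a passed as higher at 24 h. The shares of all probe sets and the limit given above for that fit hold for these calls too.

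Dlk1 is known for holding back adipocyte formation, and preadipocyte and adipocyte genes went in both directions. Of the 10 measured, 8 had a difference above 0 and 2 below 0 at each time, and none passed (limma), with 2, 5 and 6 at an unadjusted p under 0.05. Fabp4, the fatty acid carrier of adipocytes, endothelium and macrophages, was 9.73, 9.74 and 10.77 in the controls and between 11.39 and 15.17 in the HIFU tumors, with a mean difference of 2.97 ± 0.74 (SE; adjusted p = 0.141, limma). The 2 below 0 were Sox9, a factor through which Dlk1 is reported to act in preadipocytes, and Zfp423, a preadipocyte commitment factor. Their mean differences were -2.25 ± 0.55 and -2.01 ± 0.62 (SE; adjusted p = 0.135 and 0.199, limma). Sox9 divided the controls, at 12.62, 11.64 and 9.53, and passed as lower at each time once control replicate 3 was left out. In that fit 0.905%, 1.17% and 0.68% of all probe sets passed as lower at 24, 48 and 72 h. The other imprinted gene with a large difference was Slc38a4, an amino acid transporter of placenta and liver and also of muscle. It was 5.68, 5.13 and 7.16 in the controls and between 6.85 and 10.98 in the HIFU tumors, with a mean difference of 3.08 ± 0.79 (SE; adjusted p = 0.146, limma). Its highest signals were in 24 h replicate 1 and 48 h replicate 2 (10.98 each) and 72 h replicate 2 (9.98). Those are the tumors in which Igf2, Grb10, Plagl1 and Ndn were also highest.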

How the data were processed

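RNA of 12 tumors, 3 per group, was measured on Clariom S arrays. The values the authors deposited are log2 signals per probe set for 22206 probe sets, from 1.75 to 19.93; the scale is read from the values. The submitters' processing notes name Transcriptome Analysis Console 4.0. How background was corrected, probes were summarized and which build was used is not given in the sources used here. The values were not scaled again. If the arrays were normalized to one another, as their near-equal medians (5.43 to 5.68) allow, a shift of all genes together is lost and each difference is relative to the rest of the array.

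The platform annotation gave 1 symbol to 19572 probe sets, several to 0 and none to 2634. Group means were fitted to all 12 arrays with limma 3.58.1 in R 4.3.3 (lmFit, eBayes, prior degrees of freedom 3.37), two-sided, with Benjamini-Hochberg adjustment over all probe sets and a threshold of 0.05. The fit was tested on simulated data. Errors are limma standard errors (SE) of differences or standard deviations (SD) of arrays. Figures used matplotlib 3.10.9 in Python 3.11.15.

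The 8 members and the gene lists were chosen with earlier results of these data known. Named are the members, the 6 probe sets most correlated with Dlk1 among those above the median mean, up to 4 genes per list by the moderated F test over the 3 times, and, chosen after their values were seen, chromosomal neighbours and genes with a wide gap. Alternatives were a replicate block, quantile normalization, median centring, a filter on low signals, array weights, a muscle covariate, only the groups compared and leaving out arrays. Each member has 1 probe set, so averaging probe sets gave no other value. Promoter sequences came from RefSeq (GRCm38.p6), which had an entry for 7 of the 8 members.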

Additional observations from a re-analysis of the deposited data

How the results depend on the processing

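Of 632 values of the 8 genes under alternatives, 593 kept their direction and their side of the threshold (for Dlk1, stayed within 1 SD). The skeletal muscle covariate, which itself differs between groups, turned the most: at 24, 48 and 72 h and for the mean, Igf2 went to -1.06, -0.92, -0.063 and -0.68, Plagl1 to -1.65, -1.44, -0.48 and -1.19, Ndn to -1.13, -0.46, -0.012 and -0.53, and Mest to 0.05, 0.10, 0.31 and 0.15, while Grb10 went to -0.68, -0.99 and -0.55 at 24 h, 48 h and for the mean. None of these passed the threshold. Leaving out 1 array at a time, Plagl1 ranged from -0.20 (without 24 h replicate 1) to 0.55 at 24 h and from -0.27 (without 48 h replicate 2) to 0.66 at 48 h. Array weights, which down-weight variable arrays, brought past the threshold (limma) the means of Igf2 (1.67, adjusted p = 0.0186), Grb10 (1.65, adjusted p = 0.0188) and Peg3 (1.58, adjusted p = 0.0202) and Peg3 at 72 h (1.86, adjusted p = 0.0329). So did leaving out control replicate 3 and 72 h replicate 2 together, chosen after seeing the data, for Peg3 at 24, 48 and 72 h and the mean (2.17, 2.03, 2.60 and 2.27).

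The number of probe sets past the threshold at 24, 48 and 72 h and for the mean was 12, 1, 2 and 4. With a block for the replicate number it was 3, 0, 1 and 1; the numbers are only shared, since same-numbered arrays correlated between -0.608 and 0.625 in their deviations, over 0.1 in 4 of 18 pairs, and 2 of 12 arrays matched their own number best. With array weights it was 1118, 944, 1846 and 3787, and 7 for 72 h against 24 h. With the muscle covariate it was 0, 0, 1 and 1. With the 2 arrays left out together it was 468, 645, 164 and 728. Quantile normalization gave 1 at 72 h, median centring 14 for the mean, the filter on the lowest 25% of signals 4 at 72 h and 15 for the mean, and only the groups compared 6 at 48 h and 2 for 72 h against 24 h. Leaving out 1 array gave 0 to 253, 0 to 312, 1 to 194 and 1 to 398, 0 to 2 for 72 h against 48 h and 0 to 7 for 72 h against 24 h; each highest value against control was without control replicate 3. The cause of these shifts was not tested. Signals at the top of the scale (Mest) and near its bottom (Cdkn1c, Plagl1) limit what differences can show.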

Other observations

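Some other imprinted genes had their highest signals in the same 3 HIFU tumors as Igf2, Grb10, Plagl1 and Ndn. Tnfrsf23, a maternally active decoy receptor for TRAIL, was 6.97, 6.29 and 7.40 in the controls and reached 9.40 in 24 h replicate 1, 10.26 in 48 h replicate 2 and 10.40 in 72 h replicate 2. Igf2r, also maternally active, was 9.31, 8.54 and 7.76 in the controls and 9.92, 11.21 and 11.23 in those tumors. Decorin (Dcn), a fibroblast proteoglycan counted both in the imprinted gene network and among the fibroblast markers, was 9.77, 9.70 and 11.23 in the controls and 15.41, 16.50 and 17.45 in them. In the opposite direction, Peg10 had its lowest signals in 72 h replicate 2 (11.24) and 48 h replicate 2 (13.25), and Impact, a translational regulator active on the paternal copy, had its lowest in 72 h replicate 2 (11.94). These genes were picked after their values were seen.

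Zdbf2, a paternally active zinc finger gene, was also lower in 72 h replicate 2 than in the other HIFU tumors. Its signal was 7.88, 9.28 and 10.43 in the controls, 6.75 in 72 h replicate 2 and between 8.46 and 10.30 in the other HIFU tumors, and its mean difference of -0.05 ± 0.65 (SE) had an adjusted p of 0.984 (limma). Without control replicate 3 the sign turned, to 0.57 ± 0.72 (SE) with an adjusted p of 0.793 (limma). Peg3, Usp29 and Zdbf2 were all highest among the controls in control replicate 3, where Dlk1 was lowest.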
